A study of Mus musculus castaneus and Mus musculus domesticus and Mus musculus with 11 samples.

Results

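Axon guidance genes of the ephrin, netrin, Slit and repulsive guidance molecule (RGM) systems were described across 3 lines of mouse motor neuron cultures. The members were taken by symbol from the gene annotation of the read matrix: the Eph-A and Eph-B receptors, the A- and B-type ephrins, the netrins and netrin-Gs, Dcc, Neo1, the Unc5 receptors, Rgma, Rgmb, the Slits and the Robos. They came to 42 of the 27071 genes in the matrix. The rule used symbols and no measured value, but it was chosen with earlier results of these data known. Of the 42 members, 40 passed the filter on low counts and were tested. Robo4 and Ntn5 did not pass it.

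The series sequenced motor neurons differentiated from stem cells of 129S6/SvEv (called 129), of CAST/EiJ (called CAST) and of the hybrid line CASTx129, which the labels also spell 129CAS/CASTx129 (called the hybrid), and its title names variation in neurite growth. No group carried a treatment or an engineered allele according to the labels, and polyadenylated RNA was sequenced in bulk. The labels list 11 samples, of which 9 were analysed, 3 from each line, and CAST samples 7 and 8 were not analysed here. Nothing in the labels tells separate cultures or clones from repeat libraries of 1 culture, so p-values measure the spread between these libraries, which may be technical.

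Guidance cues steer a growing axon by attracting or repelling its growth cone. Ephrins are membrane-bound ligands of the Eph receptor tyrosine kinases: A-type ephrins are held by a lipid anchor, B-type ephrins span the membrane, and Epha4 sorts limb-bound motor axons into dorsal and ventral paths. Netrin-1, the product of Ntn1, is secreted by the floor plate and by ventricular zone progenitors and attracts commissural axons through Dcc, whereas Unc5 receptors turn the response to repulsion. Slits repel axons through Robo receptors and keep them from recrossing the midline, and Slit and Robo signalling also keeps motor neuron cell bodies out of the floor plate. RGM proteins bind neogenin, the product of Neo1, and can inhibit neurite growth through it.

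Total counts ranged from 7763077 in hybrid library 2 to 18167577 in 129 library 1, and the members held between 8478 and 67556 counts in a library. The libraries differed in how counts depended on exon length: the slope of each gene's log2 level relative to the mean of all libraries on log2 exon length was -0.49 in CAST library 1 beside 0.17 and 0.27 in its sister libraries, -0.60 in hybrid library 2 beside 0.07 and -0.25, and 0.25 to 0.31 in 129. An offset for that trend was fitted as an alternative. With it, 27 of 57 log2 fold changes of named members moved by over 1.5 times or changed sign. Markers of motor neurons were all detected, and Prph was the largest single contributor to the list's sum. Mnx1, Lhx3 and Isl2, which are among the markers that define the class, stood between 0.0 and 4.9 CPM (read counts scaled by effective library size). Isl1 ranged from 13.1 to 62.7 CPM over the libraries, Chat from 5.52 to 28.4, Slc18a3 from 23.5 to 126 and Slc5a7 from 15.9 to 258. The summed level of 11 pan-neuronal markers ranged from 5190 to 12708 CPM in 129, from 5190 to 13461 CPM in the hybrid and from 6761 to 15052 CPM in CAST. That of 11 fibroblast and mesenchyme markers ranged from 4494 to 21475 CPM in 129, from 1716 to 22820 CPM in the hybrid and from 4872 to 6294 CPM in CAST. None of these markers was at 0 in all 9 libraries. In edgeR's quasi-likelihood test, 1 of the 6 floor plate markers reported here, Foxa2, was higher in the hybrid than in 129, with an adjusted p of 0.0309. In the same comparison 1 of 6 tested oligodendrocyte lineage markers (Mog) was higher and 1 of 7 tested muscle markers (Myh3) was lower. The oligodendrocyte lineage list as a whole leaned the other way, with 2 of 6 log2 fold changes above 0 and a median of -1.26. No neural progenitor, astrocyte, endothelium, motor neuron, pan-neuronal, fibroblast or pluripotent cell marker passed in that comparison. Of all marker lists, Mog alone passed in hybrid against CAST, and 0 markers passed in CAST against 129.

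Levels of different genes were compared as CPM per kilobase of exon, since longer transcripts yield more reads. Ntn1 had the highest mean of the 42 members in every line, at 100.1 ± 56.8 CPM per kilobase in 129, 119 ± 97.2 in the hybrid and 167 ± 138 in CAST (SD, n = 3 each). Efnb3 came second in 129 at 32.4 ± 25.4 and in the hybrid at 115 ± 38.3. In the hybrid its mean differed from that of Ntn1 by less than either SD. In CAST, Efna3 at 37.9, Efnb3 at 31.4 and Rgma at 25.1 CPM per kilobase followed Ntn1, and neighbours in that order did not differ beyond their spread. Neo1 at 31.4 ± 1.47 CPM per kilobase, Efnb1, Unc5b, Efna5 and Epha2 came next in 129. At the low end, Epha8 averaged 0.248 and Robo3 0.324 CPM per kilobase over the 9 libraries. Robo4, the Robo of blood vessels, had counts of 1, 0 and 1 in 129, of 3, 5 and 0 in the hybrid and of 3, 1 and 2 in CAST.

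**Figure D1:**
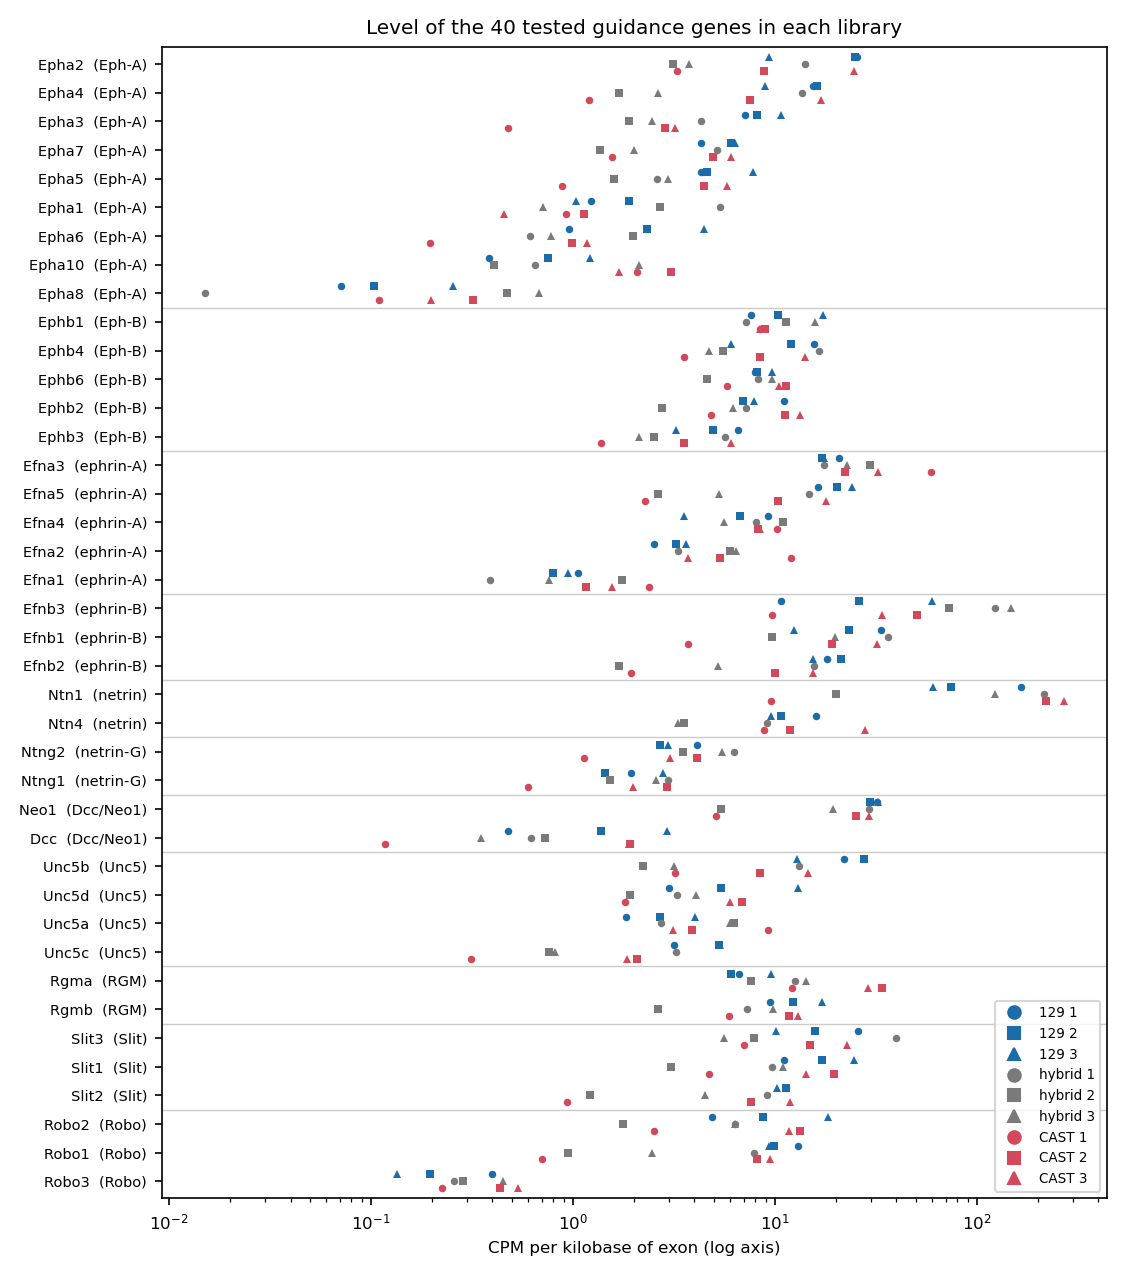
Level of each of the 40 tested guidance genes in each of the 9 libraries, as CPM per kilobase of exon on a log axis, grouped by family, with colour for the line and marker shape for the library number. Ntn1 sits farthest right in most libraries, while CAST 1 and hybrid 2 often mark the left end of a gene's spread.

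Family sums set ligands beside receptors on the same per-kilobase scale. The netrins summed to 112 ± 60.2 CPM per kilobase in 129, 125 ± 99.6 in the hybrid and 183 ± 146 in CAST. Ntn1 made up 51.5% of that sum in CAST library 1, where Ntn4 held 47.5%, and 82.2% to 97.3% in the other libraries. Dcc and Neo1 together reached 33.0 ± 2.1, 18.6 ± 11.9 and 21.2 ± 14.0 CPM per kilobase. Neo1 made up between 88.1% and 98.5% of that pair in each library, so neogenin transcript far exceeded Dcc transcript in every culture. The B-type ephrins summed to 73.7 ± 13.2 CPM per kilobase in 129, 144 ± 51.9 in the hybrid and 58.8 ± 37.6 in CAST. For the Eph-A receptors the sums were 58.2 ± 7.6, 26.6 ± 17.2 and 34.9 ± 24.7 in the same order.

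No member passed an adjusted p of 0.05 between any lines. In CAST against 129, 0 of 40 members passed edgeR's quasi-likelihood test, where 0.917% of all 14839 tested genes did. For the hybrid against 129 it was 0 of 40 beside 7.02% of all genes, and for the hybrid against CAST 0 of 40 beside 6% of all genes. The joint test of the 3 lines also called 0 of 40 members, beside 8.03% of all genes. At an unadjusted p under 0.05 the test marked 5, 3 and 4 members in those pairwise comparisons and 3 in the joint test, where 14.6%, 22.2%, 15.8% and 21.1% of all genes were marked. By limma-voom, too, 0 members passed anywhere, with 5, 5, 3 and 4 members at an unadjusted p under 0.05. DESeq2 called 2 members in CAST against 129, Epha3 and Rgma, and 3 in the joint test, the same genes and Efnb3, and 0 in both hybrid comparisons. Standard errors of the members' log2 fold changes between CAST and 129 ran from 0.38 to 1.09.

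The fitted log2 fold changes leaned negative in each comparison. Against 129, CAST values were above 0 for 13 of 40 members, or 32.5%, beside 52.4% of all genes, with a median of -0.34 beside 0.06. Hybrid values against 129 were above 0 for 15 of 40 members, 37.5% beside 50.7% of all genes, with a median of -0.60 beside 0.02. Between the hybrid and CAST the share was 12 of 40, 30% beside 45.4%, with a median of -0.43 beside -0.08. The comparisons share libraries. Without CAST library 1 the members' median in CAST against 129 was 0.04, and without both CAST library 1 and hybrid library 2 it was 0.03, with 20 of 40 values above 0. In the hybrid against 129 the median was -0.36 without hybrid library 2 and -1.09 without hybrid library 1. In the hybrid against CAST it was 0.06 without CAST library 3 and -0.70 without hybrid library 1.

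**Figure D2:**
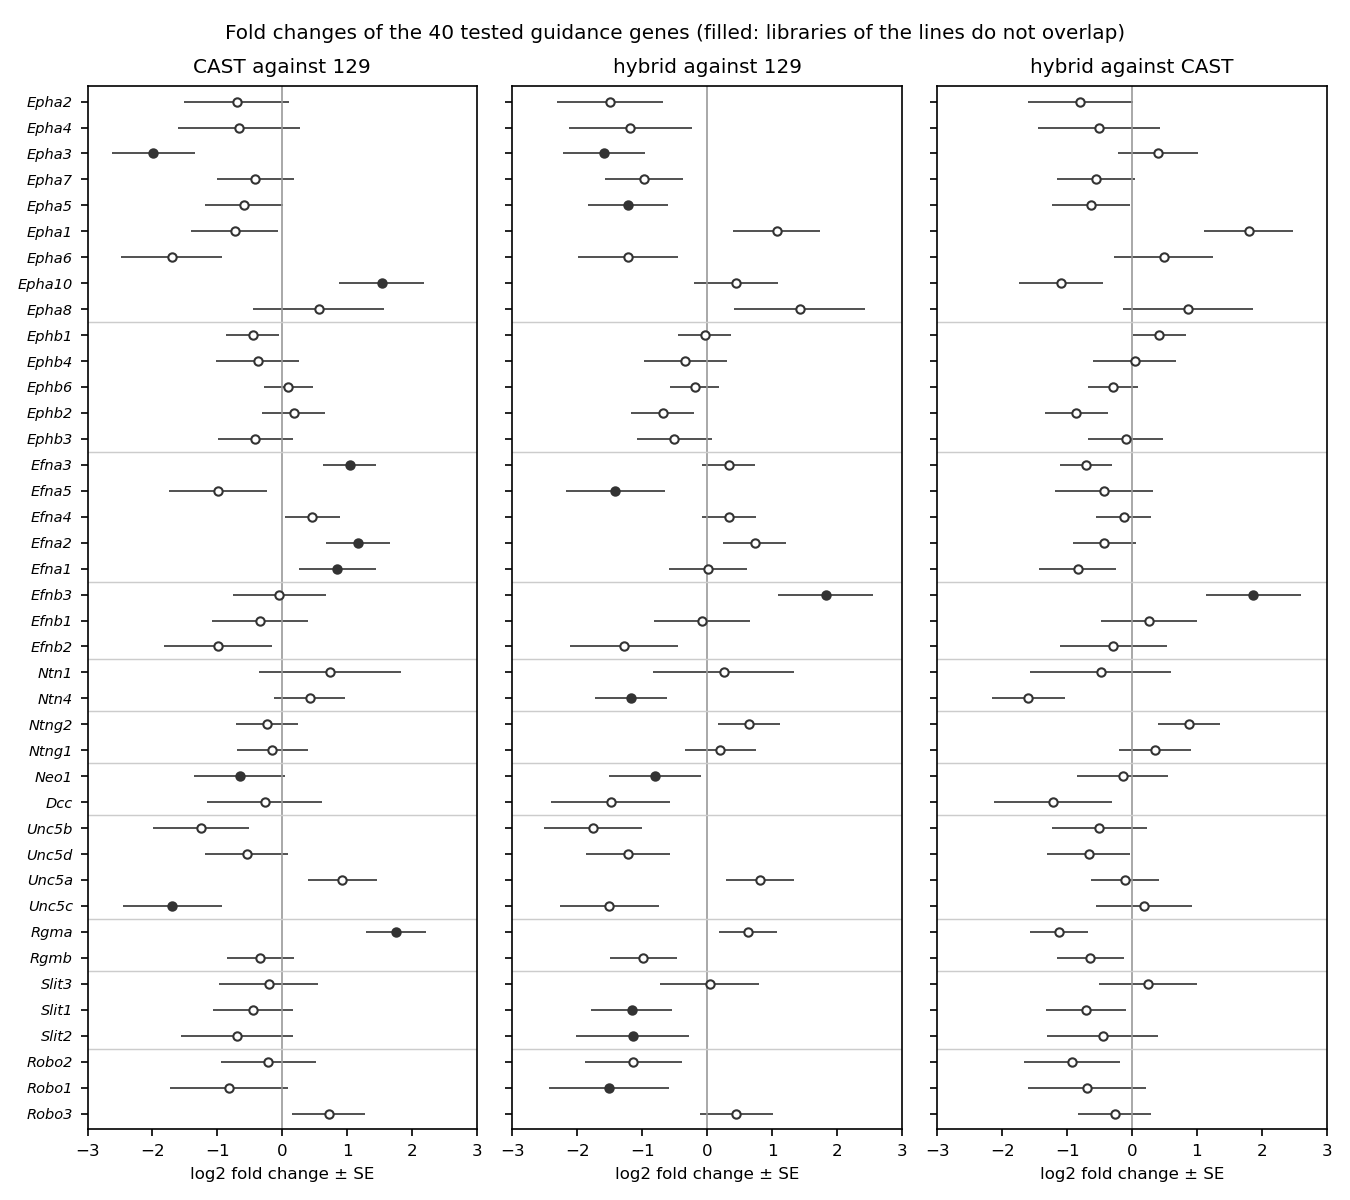
Log2 fold change ± SE of the 40 tested members in the 3 comparisons, grouped by family, with filled points where the libraries of the lines do not overlap. Most points lie left of 0, and Efnb3 is the only filled point in the hybrid against CAST.

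The libraries of CAST and 129 did not overlap for 8 of 40 members, beside 28.6% of all tested genes. Epha10, Rgma, Efna1, Efna2 and Efna3 were higher in all 3 CAST libraries than in any 129 library (15.2% of all genes), and Neo1, Epha3 and Unc5c were lower (13.5% of all genes). Between the hybrid and 129 it was 9 of 40, beside 37.5% of all genes: Efnb3 lay higher in the hybrid (20.5% of all genes), and Neo1, Epha3, Epha5, Robo1, Slit1, Slit2, Efna5 and Ntn4 lay lower (16.9% of all genes). Between the hybrid and CAST it was 1 of 40 beside 19.2% of all genes: Efnb3 lay higher (10.7% of all genes) and no member lower (8.57% of all genes). The total counts are below the shares of all genes.

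Rgma encodes a lipid-anchored ligand of neogenin. The gene (ENSMUSG00000070509) lies on the plus strand of chromosome 7 from 73375509 to 73419899 in GRCm38, and 4.65% of its exonic bases overlap A730056A06Rik on the other strand. It stood at 36.7, 33.6 and 53.1 CPM in the 129 libraries, at 69.6, 42.5 and 79.3 in the hybrid and at 67.4, 189 and 161 in CAST. Every CAST library was above every 129 library, and the hybrid overlapped both. The log2 fold change of CAST against 129 was 1.76 ± 0.46 (SE) with an adjusted p of 0.125, that of the hybrid against 129 was 0.63 ± 0.45 (adjusted p = 0.400), and that of the hybrid against CAST was -1.12 ± 0.45 (adjusted p = 0.247). CAST library 1, the lowest of its line, weighs on these values. With it and hybrid library 2 left out, CAST against 129 gave 2.06 with an adjusted p of 0.0145, and the hybrid against CAST gave -1.19 with 0.0498. With an offset for each library's trend on exon length, CAST against 129 gave 1.83 with an adjusted p of 0.0322. DESeq2 gave 1.72 for CAST against 129 with an adjusted p of 0.00788. The other alternatives did not pass in this comparison. The adjusted p was 0.132 by limma-voom, 0.303 with a block for the replicate number and 0.0541 without CAST library 1 alone.

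Its partners did not share that order. Rgmb, a second RGM ligand and a co-receptor for bone morphogenetic proteins, ranged from 72.9 to 132 CPM in 129, from 20.3 to 75.1 in the hybrid and from 45.2 to 100.3 in CAST. Neo1 (ENSMUSG00000032340, chromosome 9, minus strand, 58874687 to 59036441), the receptor of both, stood at 279.95, 259 and 282 CPM in 129, at 255, 47.2 and 168 in the hybrid and at 44.6, 220.1 and 256 in CAST. All 3 129 libraries were close together and above every other library, the nearest being CAST library 3. The log2 fold changes against 129 were -0.66 ± 0.70 for CAST and -0.80 ± 0.70 for the hybrid, with adjusted p of 0.634 and 0.487. With the length offset the hybrid value was -0.42, and without hybrid library 2 it was -0.36. Hybrid against CAST was -0.14 ± 0.70 (adjusted p = 0.961).

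Ntn1 (ENSMUSG00000020902, chromosome 11, minus strand, 68209364 to 68400823) varied more within a line than between lines. It was measured at 1037, 468 and 380.3 CPM in 129, at 1346, 127 and 776 in the hybrid and at 59.98, 1386 and 1696 in CAST. CAST library 1 was the lowest of all 9 and its sister libraries were the highest, so the lines overlapped entirely. The log2 fold changes were 0.74 ± 1.09 for CAST against 129 (adjusted p = 0.729), 0.25 ± 1.09 for the hybrid against 129 (0.893) and -0.48 ± 1.09 for the hybrid against CAST (0.913). By limma-voom the signs against 129 turned, to -0.21 and -0.24. The summed level of the 6 floor plate markers was 69.0 CPM in CAST library 1 against 360.1 and 271 in CAST libraries 2 and 3, and 110.0 in hybrid library 2 against 192 and 248 in its sister libraries. In 129 it was 166, 82.6 and 86.6 CPM. Floor plate markers and Ntn1 were lowest in the same library of CAST and of the hybrid and highest in the same library of 129. The other extremes fell in different libraries. Ntn1 was highest in hybrid library 1 and CAST library 3, the marker sum in hybrid library 3 and CAST library 2. In 129, Ntn1 was lowest in library 3 and the marker sum in library 2. The part of floor plate cells in the Ntn1 values was not tested. In bulk RNA, fewer cells of a type and less RNA per cell cannot be told apart.

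The other netrins were lower. Ntn4, a laminin-binding netrin, ranged from 35.6 to 59.6 CPM in 129, from 12.4 to 34.2 in the hybrid and from 32.9 to 104 in CAST. Its log2 fold change of the hybrid against CAST, -1.60 ± 0.56, was the most negative of the members in that comparison (adjusted p = 0.173). Ntn5 had 0 counts in all 3 129 libraries, which allows up to 0.0579 CPM from 3 counts over the line, counting error only. It had 2, 13 and 5 counts in the hybrid and 4, 1 and 1 in CAST, and 23.4% of its exonic bases overlap Sec1 on the opposite strand. Ntng2, a lipid-anchored netrin-G that binds a synaptic adhesion partner and not Dcc, stood at 16.3, 10.7 and 11.8 CPM in 129, at 25.0, 14.0 and 21.7 in the hybrid and at 4.54, 16.4 and 12.1 in CAST. The lines overlapped, and 14.0% of its exonic bases lie under 6530402F18Rik on the same strand. Its log2 fold changes were -0.23 ± 0.48, 0.64 ± 0.48 and 0.88 ± 0.48 for CAST against 129, hybrid against 129 and hybrid against CAST, with adjusted p of 0.806, 0.417 and 0.457. Ntng1 ranged from 4.96 to 24.5 CPM over the 9 libraries.

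Dcc, the attractive netrin receptor, was among the most variable members within a line. It stood at 6.28, 18.1 and 38.4 CPM in 129, at 8.21, 9.64 and 4.61 in the hybrid and at 1.55, 25.3 and 25.0 in CAST. The hybrid libraries were uniformly low, and the other lines each held a library at their level or below. Log2 fold changes were -0.27 ± 0.89 for CAST against 129, -1.49 ± 0.92 for the hybrid against 129 and -1.22 ± 0.91 for the hybrid against CAST, with adjusted p of 0.882, 0.346 and 0.641. The first turned to 0.25 without CAST library 1 and hybrid library 2. With the length offset the hybrid values were -0.41 against 129 and -0.43 against CAST, and without 129 library 3 the value against 129 was -0.72.

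The Unc5 receptors, which mediate repulsion by netrins, split by member. Unc5b, also a receptor of the vessel tip cell, stood at 137, 173 and 80.6 CPM in 129, at 82.0, 14.0 and 19.8 in the hybrid and at 20.03, 53.1 and 91.1 in CAST. Only the 129 library 3 was within the range of the other lines. Its log2 fold change of the hybrid against 129, -1.75 ± 0.76, was the most negative of the members there (adjusted p = 0.213). Without hybrid library 1 it was -2.99 with an adjusted p of 0.0400, and without hybrid library 2 it was -1.35. Leaving out CAST library 1 and hybrid library 2 gave -1.36 (adjusted p = 0.229). The length offset gave -1.60 (0.149), and by limma-voom the adjusted p was 0.145. CAST against 129 gave -1.25 ± 0.74 (adjusted p = 0.441) and the hybrid against CAST -0.50 ± 0.74 (adjusted p = 0.851). Endothelial markers summed to values from 66.0 to 104 CPM in 129, from 23.8 to 49.9 CPM in the hybrid and from 19.3 to 47.2 CPM in CAST, with none at 0 in all libraries; the part of endothelial cells in the Unc5b values was not tested.

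Unc5c, a netrin receptor expressed by motor neurons, was at 60.3, 101 and 102 CPM in 129, at 62.3, 14.5 and 15.7 in the hybrid and at 5.99, 39.9 and 35.4 in CAST. The 129 libraries were above all CAST libraries, and hybrid library 1 slightly exceeded the lowest of 129. The log2 fold changes were -1.69 ± 0.76 for CAST against 129 (adjusted p = 0.348), -1.51 ± 0.76 for the hybrid against 129 (0.269) and 0.19 ± 0.74 for the hybrid against CAST (0.952). Its exons span 19135 bases, and with the length offset the values against 129 were -1.11 in CAST and -0.63 in the hybrid. Without hybrid library 1 the hybrid value was -2.57 (adjusted p = 0.0742). Unc5a had positive values against 129, 0.93 ± 0.53 in CAST and 0.81 ± 0.53 in the hybrid (adjusted p of 0.426 and 0.366). It was one of the few members highest in CAST library 1, at 38.6 CPM. Unc5d ranged from 16.6 to 120 CPM over the 9 libraries.

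Efnb3, a transmembrane ephrin known as a midline barrier for corticospinal axons, was the one member whose hybrid libraries stood apart from both other lines. The gene (ENSMUSG00000003934) lies on the minus strand of chromosome 11 from 69554092 to 69560205, with no exonic base shared with another gene. It was measured at 34.1, 82.9 and 192 CPM in 129, at 392, 232 and 471 in the hybrid and at 31.0, 160 and 108 in CAST. Every hybrid library was above every library of 129 and CAST, while those lines overlapped. The log2 fold change of the hybrid was 1.83 ± 0.73 against 129 (adjusted p = 0.192) and 1.87 ± 0.74 against CAST (adjusted p = 0.238), and that of CAST against 129 was -0.04 ± 0.71 (adjusted p = 0.982). With 1 library left out the value against 129 ran from 1.398 without 129 library 1 to 2.63 without 129 library 3, and Efnb3 did not pass against 129 under any alternative tried. Library 1 of 129 and of the hybrid had the same pan-neuronal marker sum, 5190 CPM, with Efnb3 at 34.1 and 392 CPM, and library 3 of each had sums of 12708 and 13461 CPM, with Efnb3 at 192 and 471 CPM. Within 129, Efnb3 was ordered as the pan-neuronal sum, but not within the hybrid or CAST. Hybrid library 2 had a sum of 9873 CPM and the lowest Efnb3 of its line. CAST library 1 had the highest sum, 15052 CPM, and the lowest Efnb3 of its line. Of the 6 floor plate markers reported here, 1 passed as higher in the hybrid than in 129, and 3 had hybrid libraries above all 129 libraries and none below. The median log2 fold change of these markers was 0.74 in that comparison, beside 0.02 over all genes. It was 1.21 in CAST against 129 and -0.37 in the hybrid against CAST, where Efnb3 had -0.04 and 1.87. The summed level of the floor plate markers overlapped between the lines, and the part of either cell type in the Efnb3 values was not tested.

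**Figure D3:**
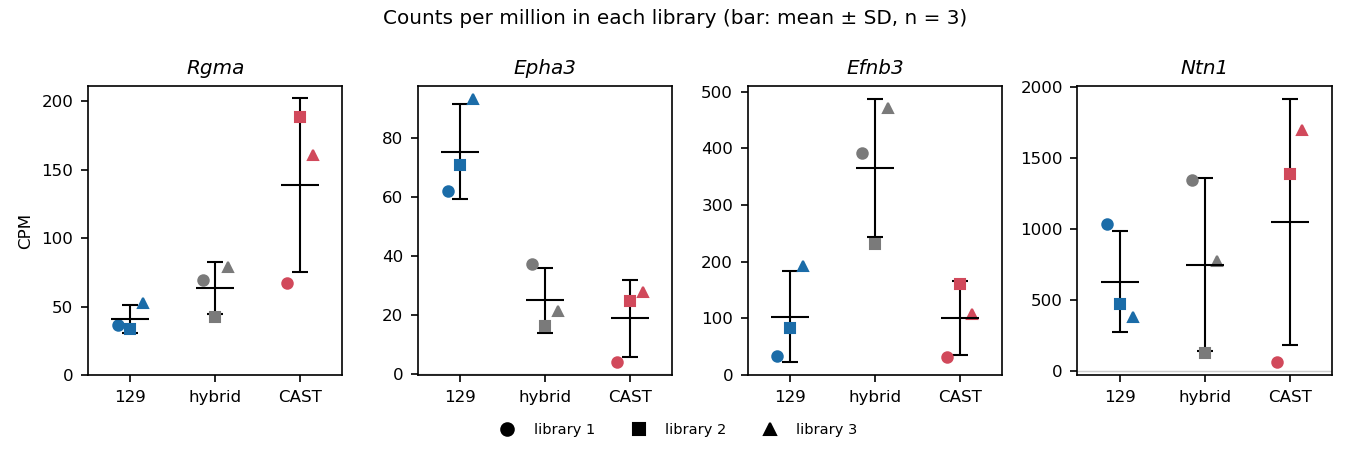
CPM of Rgma, Epha3, Efnb3 and Ntn1 in each library of the 3 lines, with a separate vertical scale for each gene, marker shape for the library number and a bar for the mean ± SD (n = 3). Rgma in CAST and Efnb3 in the hybrid lie above all 129 libraries, Epha3 lies highest in 129, and the Ntn1 libraries of the lines overlap.

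The other B-type ephrins showed no such order. Efnb2, a ligand of motor axon Eph receptors and a marker of arterial endothelium, stood at 124, 145 and 105 CPM in 129, at 107, 11.6 and 35.8 in the hybrid and at 13.3, 68.6 and 106 in CAST. The highest library of the hybrid and of CAST reached the lowest of 129. The log2 fold changes were -0.99 ± 0.83, -1.28 ± 0.84 and -0.29 ± 0.82 for CAST against 129, hybrid against 129 and hybrid against CAST, with adjusted p of 0.560, 0.369 and 0.929. Efnb1 ranged from 43.0 to 116 CPM in 129, from 33.5 to 125 in the hybrid and from 12.8 to 110 in CAST.

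Among the A-type ephrins, Efna3 had the highest mean level per kilobase over the 9 libraries, though in 129 Efna5 stood higher, at 20.2 beside 18.4 CPM per kilobase. Efna3 stood at 50.3, 41.6 and 42.6 CPM in 129, at 42.5, 71.7 and 55.3 in the hybrid and at 144, 54.1 and 79.2 in CAST. All CAST libraries exceeded the 129 libraries, with CAST library 1 far above the rest. CAST against 129 was 1.04 ± 0.41 (adjusted p = 0.288), 0.55 without CAST library 1 and hybrid library 2, and 0.63 with the length offset. The hybrid gave 0.33 ± 0.41 against 129 (adjusted p = 0.613), which turned to -0.18 with that offset, and -0.71 ± 0.41 against CAST (adjusted p = 0.491). Of its exonic bases 14.1% overlap Gm15998 on the opposite strand.

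Efna5, a repellent for limb-innervating motor axons, lay on the other side of 129, at 65.8, 81.7 and 96.6 CPM in 129, at 59.3, 10.6 and 21.3 in the hybrid and at 9.19, 42.0 and 72.3 in CAST. Every hybrid library was below 129, and CAST library 3 overlapped 129. Log2 fold changes were -0.98 ± 0.75, -1.42 ± 0.76 and -0.43 ± 0.75 for CAST against 129, hybrid against 129 and hybrid against CAST, with adjusted p of 0.531, 0.294 and 0.877. The short ligand genes Efna1 and Efna2 were also above 129 in all CAST libraries, and both were highest in CAST library 1, at 4.34 and 25.7 CPM. Efna4 ranged from 5.69 to 17.6 CPM over the 9 libraries.

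Of the Eph-A receptors, Epha3 had the most negative log2 fold change of CAST against 129 among the members. It is given here because of its values, being outside the rule for named genes. Epha3 (ENSMUSG00000052504, chromosome 16, minus strand, 63543534 to 63864175) marks motor neurons of the medial column that project to axial muscle. It stood at 62.1, 70.9 and 93.1 CPM in 129, at 37.4, 16.5 and 21.4 in the hybrid and at 4.13, 24.9 and 27.9 in CAST. All 129 libraries were above all others, as was the sum of endothelial markers given above, whose part in the Epha3 values was not tested. The log2 fold changes were -1.99 ± 0.64 for CAST against 129 (adjusted p = 0.205), -1.58 ± 0.63 for the hybrid against 129 (0.186) and 0.40 ± 0.62 for the hybrid against CAST (0.859). Leaving out CAST library 1 brought the adjusted p of the hybrid against 129 to 0.0300 at -1.59, and leaving out hybrid library 2 as well gave -1.34 with 0.0414. DESeq2 gave -2.03 with an adjusted p of 0.0315 for CAST against 129. With the length offset the values against 129 were -1.80 in CAST (adjusted p = 0.0568) and -1.10 in the hybrid (0.129), and by limma-voom the adjusted p were 0.146 and 0.189.

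Epha2, a broadly expressed epithelial and progenitor receptor, stood at 119, 117 and 43.7 CPM in 129, at 66.2, 14.7 and 17.6 in the hybrid and at 15.4, 41.4 and 115 in CAST. The lines overlapped, with 1 high library each in the hybrid and CAST. Its log2 fold changes were -0.70 ± 0.80, -1.50 ± 0.82 and -0.80 ± 0.81 for CAST against 129, hybrid against 129 and hybrid against CAST (adjusted p of 0.654, 0.298 and 0.758). Epha4, the receptor of the dorsal limb choice, was at 125, 131 and 72.3 CPM in 129, at 109, 13.6 and 21.2 in the hybrid and at 9.70, 60.4 and 136 in CAST. CAST library 3 was the highest and CAST library 1 the lowest of all 9. The corresponding values were -0.67 ± 0.94, -1.18 ± 0.95 and -0.52 ± 0.94 (adjusted p of 0.713, 0.453 and 0.887).

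The remaining Eph-A receptors were Epha5, at 14.9 to 130 CPM over the libraries, Epha7, at 13.4 to 62.9, and Epha1, Epha6, Epha8 and Epha10, all at or below 23.7 CPM. Epha10, which lacks kinase activity, was at 12.3 to 22.0 CPM in CAST and 2.78 to 8.73 in 129, with a log2 fold change of 1.54 ± 0.66 (adjusted p = 0.326). Epha1 had 1.80 ± 0.69 for the hybrid against CAST (adjusted p = 0.218), with the hybrid libraries at 20.9, 10.6 and 2.80 CPM and CAST between 1.79 and 4.44. Hybrid library 3 lay inside the CAST range.

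In both comparisons against 129, the Eph-B receptors had the narrowest range of fold changes among the families with 5 or more members. In the hybrid against CAST they ran from -0.86 to 0.42, and the A-type ephrins had a narrower range, from -0.84 to -0.13. Ephb1, which guides limb-bound motor axons to the ventral path, stood at 53.2, 72.7 and 122 CPM in 129, at 50.5, 79.9 and 111 in the hybrid and at 58.8, 62.4 and 59.2 in CAST. CAST libraries lay close together inside the range of the other lines, and here CAST library 1 did not stand apart. Log2 fold changes were -0.45 ± 0.41, -0.04 ± 0.41 and 0.42 ± 0.41 in the order used above, with adjusted p of 0.580, 0.960 and 0.745. Over the libraries, Ephb2 ranged from 34.9 to 167 CPM, Ephb3 from 9.19 to 43.4, Ephb4, a receptor of venous endothelium, from 16.4 to 76.4, and Ephb6, which lacks kinase activity, from 17.5 to 42.7. In all 3 comparisons their log2 fold changes lay between -0.86 and 0.18.

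The Slits were abundant in counts. Slit2, a midline and motor neuron repellent, stood at 289, 290.3 and 259.5 CPM in 129, at 232, 31.0 and 115 in the hybrid and at 23.7, 193 and 301 in CAST. All hybrid libraries were below 129, while CAST spanned from the lowest to the highest of the 9. The log2 fold changes were -0.69 ± 0.86 for CAST against 129, -1.15 ± 0.87 for the hybrid against 129 and -0.45 ± 0.86 for the hybrid against CAST (adjusted p of 0.675, 0.425 and 0.892). With the length offset both values against 129 were -0.18. Slit3 was at 157, 96.4 and 61.1 CPM in 129, at 241, 47.9 and 34.1 in the hybrid and at 42.6, 90.9 and 139 in CAST. The lines overlapped, with log2 fold changes of -0.21 ± 0.76, 0.04 ± 0.76 and 0.25 ± 0.76 (adjusted p of 0.894, 0.978 and 0.935). Slit1 lay below 129 in all hybrid libraries, at 57.2, 18.02 and 65.1 CPM beside 66.0, 101 and 147, with -1.16 ± 0.62 (adjusted p = 0.293).

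Robo1 and Robo2 are the main Slit receptors of motor and commissural neurons. Robo1 stood at 216, 164 and 154 CPM in 129, at 131, 15.6 and 40.8 in the hybrid and at 11.6, 134 and 156 in CAST. The hybrid lay below 129, and CAST library 3 reached into the 129 range. Its log2 fold changes were -0.82 ± 0.91, -1.51 ± 0.92 and -0.69 ± 0.91 for CAST against 129, hybrid against 129 and hybrid against CAST, with adjusted p of 0.644, 0.344 and 0.836. With the length offset its hybrid value against 129 was -0.89. Robo2 was at 82.8, 149 and 311 CPM in 129, at 108, 30.2 and 108 in the hybrid and at 43.0, 226 and 199.8 in CAST, and the lines overlapped. Its values were -0.21 ± 0.73, -1.14 ± 0.74 and -0.93 ± 0.74 (adjusted p of 0.888, 0.369 and 0.673), and the values against 129 became 0.41 for CAST and -0.16 for the hybrid with the length offset. Robo3, which delays Slit sensitivity in commissural axons, did not exceed 3.66 CPM.

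CAST library 1 and hybrid library 2 were the low libraries of their lines for most members. CAST library 1 was the lowest of the CAST libraries for 33 of 40 members, or 82.5%, beside 44.9% of all tested genes. Its log2 ratio to the mean of CAST libraries 2 and 3 had a median of -1.81 over the members and -0.03 over all genes. Hybrid library 2 was the lowest of its line for 25 of 40 members, or 62.5%, beside 40.5% of all genes, with medians of -0.93 and -0.05. The lowest ratios in CAST library 1 were those of Ntn1 at -4.68, Dcc at -3.94, Robo1 at -3.64 and Slit2 at -3.37. The 5 members highest in CAST library 1 were Unc5a, Efna1, Efna2, Efna3 and Efna4.

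Exon length ordered these ratios. Spearman's rho between exon length and the log2 ratio of CAST library 1 was -0.54 across the 40 members and -0.55 across all genes, and for hybrid library 2 it was -0.44 and -0.52. These coefficients run across genes of the same libraries, which are not independent replicates, and are given as a description. Efna1 to Efna4, with the shortest exon lengths of the tested members, had ratios above 0 in both libraries. Slit2, with the longest, had -3.37 and -2.48. Efna5, at 4032 bases, had -2.62 in CAST library 1. With the length offset the members' median log2 fold change was -0.11 for CAST against 129 and -0.26 for the hybrid against 129.

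**Figure D4:**
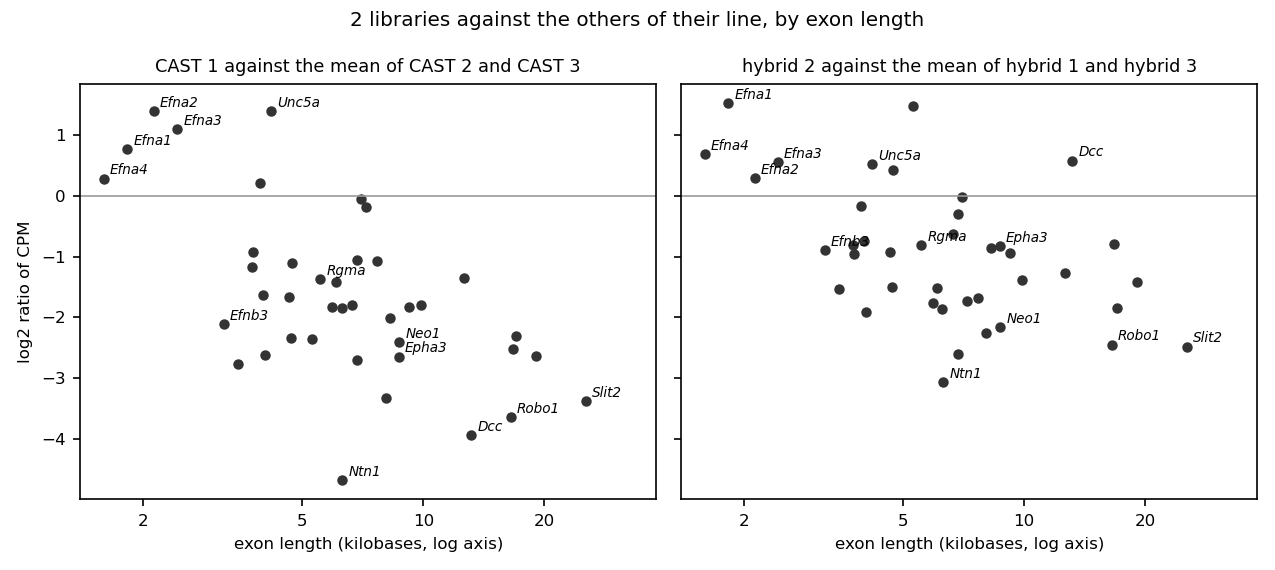
Log2 ratio of CPM of CAST 1 (left) and hybrid 2 (right) to the mean of the other libraries of their line, against exon length in kilobases on a log axis, with 1 point for each of the 40 tested members. Efna1 to Efna4 and Unc5a lie above 0 in the left panel, and Ntn1 lies lowest in both panels, at -4.68 and -3.07.

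The 129 libraries were alike in their length slope and differed in marker content. From library 1 to library 2 to library 3 the pan-neuronal sum stood at 5190, 7953 and 12708 CPM and the fibroblast and mesenchyme sum at 21475, 16349 and 4494 CPM. Of the 40 members, 18 (45%) were ordered across these libraries as the pan-neuronal sum, beside 32.5% of all tested genes, and 10 (25%) in the opposite order, beside 26.6%. Library 3 held 6.11 times the CPM of library 1 for Dcc, 5.62 times for Efnb3, 4.68 times for Epha6, 4.38 times for Unc5d and 3.14 times for Epha10. The opposite order was seen for Robo3 (0.338 times), Ntn1 (0.367), Epha2 (0.367), Efnb1 (0.372), Slit3 (0.389) and Ephb4 (0.390), among others. Ligands and receptors were found on both sides: Slit1 (2.22 times), Robo2, Unc5a and Unc5c were ordered with the pan-neuronal sum, and Ntn4 (0.597 times) and Robo1 (0.712 times) against it. The part of either cell type in the members' levels was not tested.

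**Figure D5:**
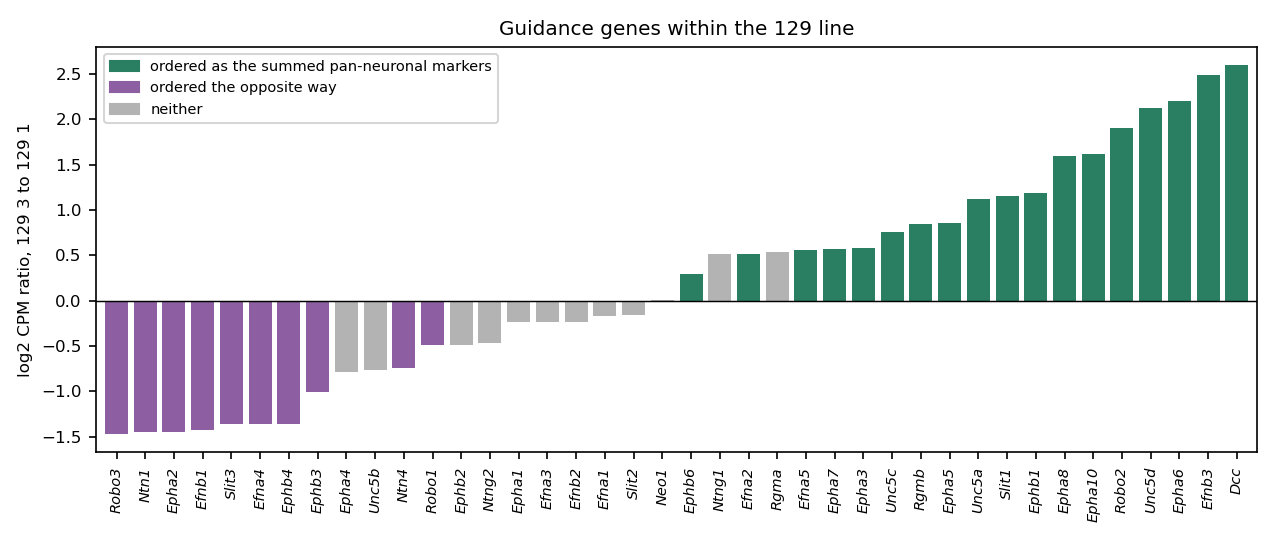
Log2 ratio of CPM in 129 library 3 to 129 library 1 for each tested member, in ascending order, coloured by whether the 3 libraries of 129 were ordered as the summed pan-neuronal markers, the opposite way or neither. Dcc and Efnb3 stand at the right with ratios of 6.11 and 5.62 on the linear scale, and Robo3, Ntn1 and Epha2 at the left with 0.338, 0.367 and 0.367.

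Genes that work with these ligands and receptors were described from lists of co-receptors and modifiers, and of signal transduction. Of 26 tested co-receptors, alternative ligands and modifiers, 0 passed in CAST against 129, 0 in the hybrid against 129 and 1 in the hybrid against CAST, beside 0.917%, 7.02% and 6% of all genes. The list's median log2 fold changes were -0.34, -0.51 and -0.23, beside 0.06, 0.02 and -0.08 over all genes. The gene that passed was Gpc3, a cell surface proteoglycan, at 58.4, 44.8 and 20.5 CPM in 129, at 93.5, 84.7 and 23.8 in the hybrid and at 6.92, 14.2 and 15.8 in CAST. It was higher in every hybrid library than in CAST, with 2.45 ± 0.62 and an adjusted p of 0.0492, and passed in 1 of 9 fits that left out a library, the adjusted p reaching 0.131. Fibroblast marker sums were likewise lower in all 3 CAST libraries than in hybrid libraries 1 and 2, though not than in hybrid library 3, and their part in this value was not tested.

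Of 47 tested genes of guidance signal transduction, 1 passed in CAST against 129, 2 in the hybrid against 129 and 2 in the hybrid against CAST, beside the shares of all genes just given, with median log2 fold changes of -0.27, -0.49 and -0.23. Rgs3 was higher in CAST than in 129, Plcg1 and Chn2 were lower in the hybrid than in 129, and Plcg1 and Dock4 were lower in the hybrid than in CAST. Plcg1, a phospholipase that binds activated receptor tyrosine kinases, stood at 106, 121 and 112 CPM in 129, at 30.2, 11.04 and 23.7 in the hybrid and at 94.4, 148 and 119.6 in CAST. Every hybrid library was below every other library. Plcg1 fell by 2.38 ± 0.42 on the log2 scale against 129 (adjusted p = 0.00804) and by 2.47 ± 0.42 against CAST (adjusted p = 0.00678), and it passed in all 9 fits that left out a library in both comparisons. Rgs3, a regulator of G protein signalling that B-type ephrins bind, was at 2.001, 1.65 and 2.99 CPM in 129, at 6.08, 3.91 and 4.40 in the hybrid and at 11.6, 14.0 and 10.4 in CAST. The 3 lines did not overlap, and CAST against 129 was 2.43 ± 0.40 (adjusted p = 0.0276, and up to 0.182 with a library left out).

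Chn2, a Rac GTPase-activating protein related to the Epha4 effector Chn1, was at 28.2, 42.2 and 78.1 CPM in 129 and 11.9, 18.6 and 11.7 in the hybrid, a log2 fold change of -1.82 ± 0.46 (adjusted p = 0.0454). Dock4, a Rac activator, was at 12.9, 3.07 and 10.6 CPM in the hybrid and 21.7, 61.1 and 62.6 in CAST, with -2.44 ± 0.59 (adjusted p = 0.0397). Chn2 passed in 2 of 9 fits that left out a library and Dock4 in 1 of 9. Only Plcg1 among these 5 genes passed in every such fit.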

How the data were processed

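Bulk RNA-seq of 9 libraries, 3 per line, was used. The authors deposited raw counts per Ensembl gene: whole numbers with unequal totals. STAR and the mm10 build are named in the submitters' processing notes. Which STAR version, counter, annotation and strand setting were used is not given in the sources used here, so reads of overlapping genes cannot be assigned with certainty, and the effect of aligning CAST reads to a reference of another strain was not tested. Per the labels, poly-T selected RNA was copied with random hexamer primers after column purification and DNase treatment.

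Symbols, coordinates and exon lengths came from GENCODE M21 (GRCm38, also called mm10), with a symbol for 27031 of 27071 IDs and none for 40. Ntn3 was not analysed here. Counts were fitted with edgeR 4.0.16 (R 4.3.3): TMM scaling, filterByExpr (minimum count 10, total 15, proportion 0.7), a robust quasi-likelihood fit of all 9 libraries, two-sided tests and Benjamini-Hochberg adjustment over 14839 genes at 0.05. CPM use TMM-scaled library sizes, and ratios between libraries add 0.1 CPM. Alternatives were DESeq2 1.42.0, limma-voom (limma 3.58.1), RLE scaling, other filters, a non-robust fit, only the lines compared, libraries left out, a replicate block and an offset for a lowess trend (span 0.5) of each library on exon length. The fit was tested on simulated data.

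Values in every library are given for members past the threshold, the member highest per kilobase in each family, and Epha4, Efna5, Efnb2, Ntn1, Dcc, Unc5c, Neo1, Rgma, Slit2, Robo1 and Robo2. Epha3 was added after its values were seen. Partner genes were named if past the threshold. The members, the 10 marker lists and the 2 partner lists were chosen with earlier results of these data known. Hjv is listed under its older symbol Hfe2. The result of 1 marker gene is not reported here.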

Additional observations from a re-analysis of the deposited data

How the results depend on the processing

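Of 1083 values of the 19 named members under alternatives, 1021 kept their direction and side of the threshold, 8 newly passed it, and 18 reversed with all or several libraries and 36 with 1 library left out; the cause was not tested. The 18 reversed values are log2 fold changes in CAST against 129 unless stated. Without CAST 1 and hybrid 2 they were Dcc 0.25, Efnb3 0.36, Ntng2 0.099, Robo2 0.22 and Slit3 0.097. With the exon length offset they were Dcc 0.021, Robo2 0.41, Efna3 -0.18 and Ephb1 0.43 in hybrid against 129, and Neo1 0.042 in hybrid against CAST. By limma-voom they were Ntn1 -0.21, Ntn1 -0.24 and Slit3 -0.41 in hybrid against 129, and Slit3 -0.14 in hybrid against CAST.

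The count of members past the threshold, 0 in every comparison, became 2 (CAST against 129) and 3 (joint) by DESeq2. It became 1, 1, 1 and 2 (joint) without CAST 1 and hybrid 2, and 1 (CAST against 129) and 2 (joint) with the offset. With 1 library left out it stayed 0 in CAST against 129 and hybrid against CAST, and ran from 0 to 1 in hybrid against 129 (Unc5b without hybrid 1, Epha3 without CAST 1) and from 0 to 2 in the joint test (Epha3 and Rgma without CAST 1).

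Leaving out 1 library gave these ranges where a sign turned. In CAST against 129 they were Dcc -0.71 to 0.50, Efnb3 -0.57 to 0.77, Ntng2 -0.63 to 0.12, Robo2 -0.58 to 0.43 and Slit3 -0.65 to 0.20. In hybrid against 129 they were Ephb1 -0.36 to 0.34, Ntn1 -0.49 to 0.81 and Slit3 -1.41 to 0.46. In hybrid against CAST they were Efna5 -1.36 to 0.24, Efnb2 -1.39 to 0.32, Epha2 -1.84 to 0.20, Epha3 -0.061 to 0.78, Epha4 -1.99 to 0.45, Neo1 -0.67 to 0.32, Ntn1 -1.20 to 0.049, Slit2 -1.23 to 0.21, Slit3 -1.17 to 0.68, Unc5b -1.70 to 0.074 and Unc5c -0.86 to 0.57.

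Deviations of same-numbered libraries from their line means correlated above 0.1 in 2 of 9 pairs (-0.72 to 0.49). Of 9 libraries, 3 correlated best with their own number. CAST 1 correlated at 0.66 with hybrid 2 and at -0.82 and -0.90 with CAST 2 and CAST 3. Deviations of that kind can mask a shared batch, so whether the numbers pair the libraries could not be decided. With the replicate block 0 members passed in any comparison, and over all genes 6 passed in CAST against 129 in place of 136. Under the block Efnb3 was 0.054 and Slit3 0.10 in CAST against 129, and Slit3 was -0.23 in hybrid against 129 and -0.33 in hybrid against CAST. Over all genes DESeq2 called 939 in CAST against 129, limma-voom 263, the offset 267, and fits without 1 library 26 to 157. Of the 57 named log2 fold changes, 27 moved by over 1.5 times or turned with the length offset, 27 without CAST 1 and hybrid 2, 16 by limma-voom, 12 under the block and 6 to 28 with 1 library left out. Robo4, Ntn5 and Epha8 had the lowest counts.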
